A study of Mus musculus with 35 samples.

Results

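Zfp42, Triml1 and Triml2 form a small gene cluster on mouse chromosome 8, and their neighbourhood was examined for acetylation of histone H3 at lysine 27 (H3K27ac) and for binding of the transcription factor KLF4 during reprogramming. The members were every deposited peak over the 3 genes or within 100 kb of them (GRCm38 gene coordinates, chr8:43029806-43407009, called the window here). Peaks of each assay that shared at least 1 bp were merged into regions. The window held 34 of 179334 H3K27ac regions and 9 of 85740 KLF4 regions, from 12 and 10 libraries. In short, KLF4 had a peak at the Zfp42 promoter in each of its 10 libraries from day 3 on, whereas no H3K27ac peak lay in the window before day 9, and most of the acetylation was listed in embryonic stem cells (ESC) alone.

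The ChIP-seq libraries came from mouse embryonic fibroblasts (MEF) of a C57BL/6 x 129 strain with the genotype OKSM Col1a1/M2rtTA ROSA26. In these cells doxycycline switches on a cassette, inserted at Col1a1, that codes for Pou5f1, Klf4, Sox2 and Myc. MEF were kept in MEF medium without doxycycline and were unsorted (H3K27ac, 2 libraries). Cells of days 3, 6 and 9 were grown in ESC medium with serum and LIF, doxycycline at 1 µg/ml, and ascorbic acid at 50 µg/ml. Day 3 cells were unsorted, and cells of days 6 and 9 were sorted for the surface marker SSEA1, so that day and sorting cannot be told apart between days 3 and 6. There were 3, 3 and 2 H3K27ac libraries of days 3, 6 and 9, and 2 KLF4 libraries of each day. The reference was the V6.5 ESC line of the same strain cross, unsorted and without the cassette, cultured on irradiated feeder cells in ESC medium (2 libraries of each assay). A further pair of KLF4 libraries came from V6.5 cells with the 2i inhibitors, a MEK inhibitor at 1 µM and a GSK3 inhibitor at 3 µM. The KLF4 antibody does not separate cassette KLF4 from the cell's own. Nothing in the labels says whether libraries of a group came from separate cultures, so the p-values measure the spread between these libraries.

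Zfp42, also called Rex1, codes for a zinc finger protein of the YY1 family and is a widely used marker gene of naive pluripotent cells. It is on in the inner cell mass and in ESC and is shut off on differentiation. Triml1 and Triml2 code for tripartite motif-like proteins, and Triml1 is known from the preimplantation embryo. H3K27ac marks active promoters and enhancers, and KLF4 binds GC-rich and CACCC-type sequences.

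The 3 genes lie on chromosome 8 (GRCm38). Triml1 spans chr8:43129806-43180494, Triml2 chr8:43180463-43193884 and Zfp42 chr8:43295067-43307009, and the window also holds the pseudogenes Gm6284 and Gm2221. Zfp42 is read from the minus strand and starts at 43307009, so that higher coordinates are upstream of it. The start of Triml2 at 43180536, on the plus strand, lies 126 kb downstream of the Zfp42 start. The long model of Triml1 reaches into the start of Triml2, while the Triml1 start of RefSeq's promoter table (43141486, minus strand) is 39 kb away from there. A peak near the Triml2 start therefore counts for both Triml genes by overlap, and neither assay listed a peak at the Triml1 start of the promoter table.

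Promoters of Zfp42 and Triml2 are shown because KLF4 peaks and H3K27ac peaks lay over both. Each run gives the 250 bases before the start, 5′ to 3′ in the direction of the gene, from RefSeq's promoter table of GRCm38.p6. Capitals mark matches to the 5 motifs searched on both strands: KLF (GGGNGTGG), GC box (GGGGCGGGG), octamer (ATGCAAAT), SOX (CATTGT) and YY1 (CCATNTT).
Zfp42, chr8:43307010-43307259, minus strand: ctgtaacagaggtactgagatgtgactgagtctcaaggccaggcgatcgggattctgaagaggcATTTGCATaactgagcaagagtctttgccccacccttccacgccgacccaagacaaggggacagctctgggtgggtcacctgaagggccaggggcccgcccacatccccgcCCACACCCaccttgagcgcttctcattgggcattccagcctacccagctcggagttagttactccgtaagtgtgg
Triml2, chr8:43180286-43180535, plus strand: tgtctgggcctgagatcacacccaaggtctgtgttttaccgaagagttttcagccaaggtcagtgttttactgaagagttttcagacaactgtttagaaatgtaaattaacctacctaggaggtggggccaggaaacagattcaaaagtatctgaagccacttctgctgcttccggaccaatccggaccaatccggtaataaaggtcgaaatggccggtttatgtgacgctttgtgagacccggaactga
In the Zfp42 run the octamer, the kind of sequence bound by POU factors such as POU5F1, was read from the opposite strand as ATTTGCAT, 186 to 179 bases before the start. The KLF motif was read from the opposite strand as CCACACCC, 75 to 68 bases before the start. An octamer was present in 1.74% of 32851 promoters of the same 300-base length and a KLF motif in 17.6%, and the shares were 11.4% for the GC box, 12.6% for SOX and 16.1% for YY1. Triml2 and Triml1 held none of the 5 motifs in their 300 bases, which says only that these letters were not in those windows. The Zfp42 promoter had 57.7% G and C and 11 CpG, against 48% and 9 for Triml2, 41.3% and 2 for Triml1, and medians of 52.7% and 7 over all promoters.

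KLF4 occupied the Zfp42 promoter from the earliest day sampled. The deposited fold enrichment of the promoter peak is the authors' value and depends on a library's depth and immunoprecipitation, so it describes a peak and not a change in binding. It was 5.06 (batch DG-4040) and 8.27 (EA-3702) at day 3, and 8.85 and 12.5 in the same batches at day 6. Day 9 had folds of 10.4 and 7.30, ESC 9.16 (EA-2643) and 7.37 (EA-2697), and 2i 5.16 (DG-3012) and 21.3 (EA-3702). No order over all stages is visible in these folds: the lowest and the second lowest came from day 3 and 2i, and the highest from the other 2i library. Within both DG-4040 and EA-3702 the fold was higher at day 6 than at day 3. Within EA-3702 both day 9 folds lay below the day 6 fold. The q-value given by the authors was at most 0.01 for all 10 promoter peaks. Within its own list, each outscored most peaks, with 15.3% and 14.1% of the list scoring higher for day 3, 7.10% and 6.51% for day 6, 7.19% and 22.6% for day 9, 0.696% and 4.08% for ESC, and 13.6% and 0.847% for 2i.

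The 10 promoter peaks were placed almost alike. They shared 226 bp, chr8:43307011-43307236, or 227 to 2 bases before the start, and their midpoints lay 50.5 to 189 bp upstream of it (median 124 bp). The octamer and the KLF match printed in capitals both fall inside the shared stretch. Of all KLF4 regions, 4.89% had a peak in all 10 libraries, against 1 of the 9 in the window. Of protein-coding genes taken with 2.5 kb to each side, 23.5% had a KLF4 peak in all 10 libraries, against 1 of the 3 members, so a peak in every library is common among genes.

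**Figure D1:**
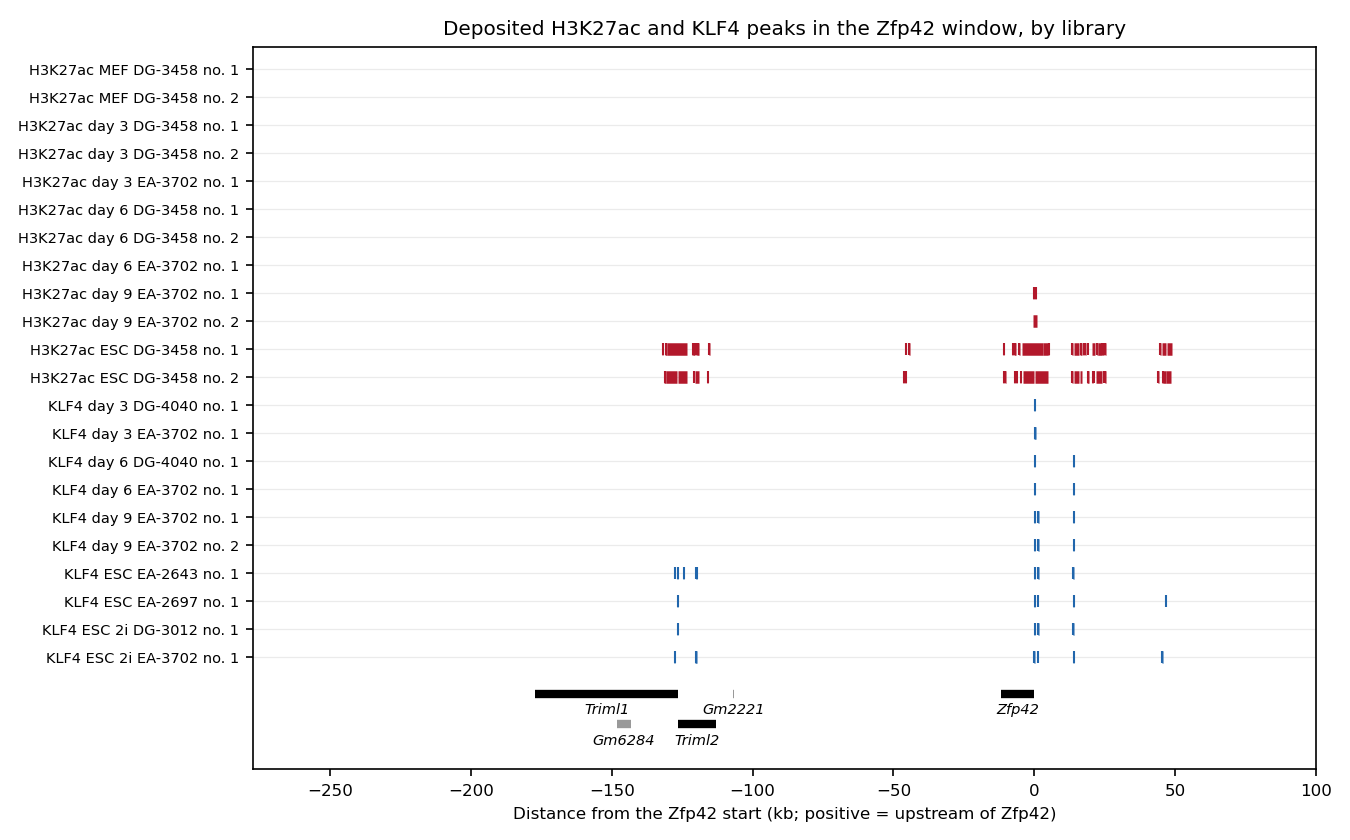
Deposited peaks of the window in the 22 libraries (rows), by distance from the Zfp42 start in kb, with H3K27ac in red and KLF4 in blue and genes as bars beneath (black, protein-coding; grey, pseudogene). The first 8 rows are empty, the day 9 H3K27ac rows hold peaks at the Zfp42 start, and the ESC rows hold 32 and 28 H3K27ac peaks.

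KLF4 peaks away from the promoter were listed at later stages. The region 13.9 kb upstream of Zfp42 (chr8:43320575-43321232, in no annotated gene) had no peak in the day 3 libraries and a peak in each of the other 8. Day 6 folds were 2.61 and 2.94, day 9 folds 4.12 and 2.78, ESC folds 9.06 and 7.62 and 2i folds 5.67 and 10.4. As at the promoter, these folds describe a peak and not a change in binding. Divided by the promoter fold of the same library, the folds were 0.295 and 0.236 for day 6, 0.394 and 0.382 for day 9, 0.989 and 1.03 for ESC, and 1.10 and 0.487 for 2i. The upstream peak was therefore below 0.5 of the promoter peak in all 4 libraries of days 6 and 9 and in the EA-3702 2i library, and close to it or above it in the other 3. The early peaks were weak: in both day 6 libraries and day 9 number 2 the deposited q-value was above 0.01, and 94.0%, 94.5% and 95.6% of the list scored higher.

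The region 1.4 kb upstream (chr8:43308243-43308560) had a peak in both day 9, both ESC and both 2i libraries. Its folds were 3.27 and 3.12 at day 9, 4.96 and 3.69 in ESC, and 4.96 and 4.41 with 2i. The day 9 peaks and the EA-2697 ESC peak had q-values above 0.01. With peaks limited to a q-value of at most 0.01, the 13.9 kb region was listed in 0 of 2 libraries at day 6, 1 of 2 at day 9, and 2 of 2 in ESC and with 2i, and the 1.4 kb region in 0 of 2 at day 9, 1 of 2 in ESC and 2 of 2 with 2i. The first stage at which these upstream regions appeared thus depended on the limit. The share of all KLF4 regions that had peaks in both libraries of day 6, day 9, ESC and 2i and none at day 3 was 0.281%, against 1 of 9 here. For peaks in both libraries of day 9, ESC and 2i and none at days 3 and 6 it was 0.234%, again against 1 of 9.

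**Figure D2:**
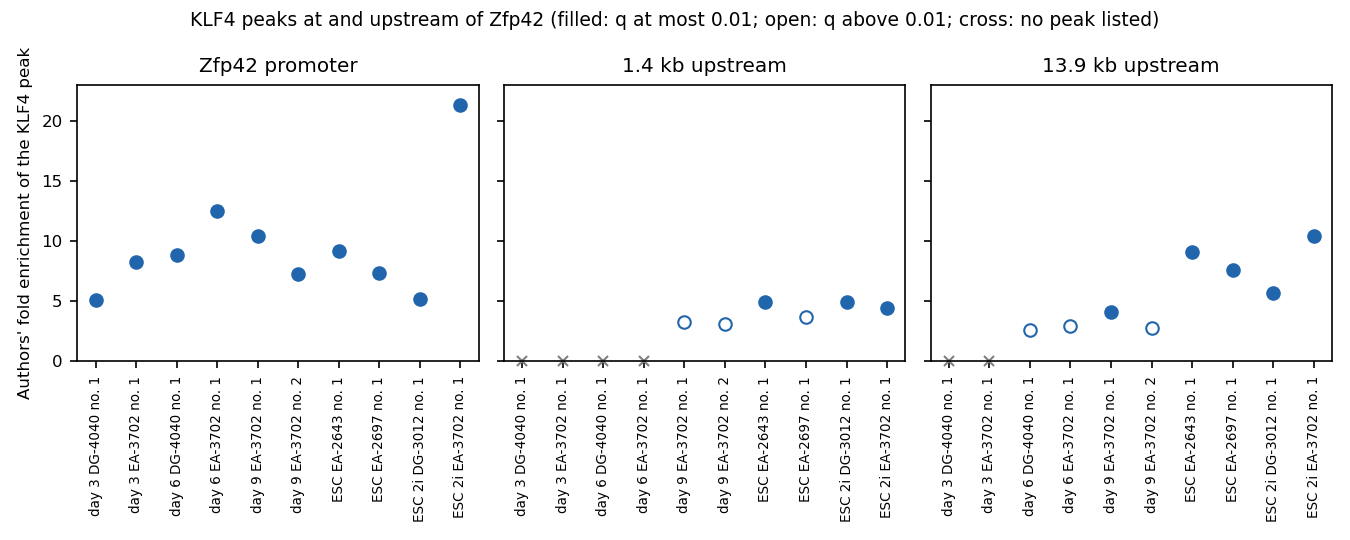
Authors' fold enrichment of the KLF4 peak (vertical axis, linear from 0) in each of the 10 libraries at the Zfp42 promoter and at the regions 1.4 and 13.9 kb upstream. Filled points have a q-value of at most 0.01, open points one above it, and crosses at 0 mark libraries with no listed peak. The promoter is filled in all 10 libraries, and the 13.9 kb region runs from 2.61 at day 6 to 10.4 in a 2i library.

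At the Triml genes KLF4 peaks were listed in ESC and 2i libraries and in none of the 6 libraries of days 3, 6 and 9. The region just before the Triml2 start (chr8:43180209-43180497, 327 to 39 bases before the start) had a peak in both ESC libraries, with folds of 4.15 and 2.59, and in the DG-3012 2i library, with a fold of 3.77. Only the EA-2643 ESC peak had a q-value of at most 0.01. A region further out (chr8:43179209-43179567) was listed in the EA-2643 ESC library with a fold of 2.43 and in the EA-3702 2i library with a fold of 9.20, the strongest KLF4 peak of the Triml genes. Inside Triml2, chr8:43186748-43187249 had a peak in the same pair of libraries (folds of 2.60 and 3.11), and chr8:43182383-43182569 in the EA-2643 ESC library alone (3.90). Far upstream of Zfp42, 1 region at 45.5 kb was listed in the EA-3702 2i library (4.74) and 1 at 46.9 kb in the EA-2697 ESC library (3.61). Of all KLF4 regions, 18.8% had a peak in both ESC libraries, against 4 of 9 in the window, and 17.6% in both 2i libraries, against 3 of 9. Without the EA-2697 ESC library 7 regions of the window had a peak in ESC, and at a q-value of at most 0.01 only 2 had one in both ESC libraries.

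Counted over the window, each day 3 library had 1 KLF4 peak, each day 6 library 2 and each day 9 library 3. The ESC libraries had 8 (EA-2643) and 5 (EA-2697), and the 2i libraries 4 (DG-3012) and 6 (EA-3702). The 6 libraries of days 3 to 9 all lay below the 4 ESC and 2i libraries. Stages accounted for 0.860 of the sum of squares (p = 0.0275 by exact permutation of 113400 labelings, or 0.0330 adjusted over the 6 tests made here). Per 10000 listed peaks, day 3 libraries had 0.339 and 0.291, day 6 libraries 0.835 and 0.888, and day 9 libraries 1.25 and 1.15. ESC libraries had 2.31 and 2.37, and 2i libraries 1.20 and 2.46 (between-stage share 0.863, exact permutation p = 0.0148, adjusted p = 0.0296). The DG-3012 2i library lay among the day 9 values, and without it the highest mean passed from ESC to 2i (share 0.9985). Over days 3, 6 and 9 the peaks per 10000 rose by 0.148 per day (two-sided p = 0.0222 by exact permutation of 90 labelings, or 0.0330 adjusted, with no smaller p possible). Within batch EA-3702 the day 3 value was 0.291, the day 6 value 0.888, the day 9 values 1.25 and 1.15 and the 2i value 2.46, and within DG-4040 day 3 had 0.339 and day 6 had 0.835. ESC without 2i were in batches that held no other stage.

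These counts rest in part on weak peaks. With a q-value of at most 0.01 the window held 1 peak in every library of days 3 and 6, 2 and 1 at day 9, 6 and 2 in ESC, and 3 and 5 with 2i. The between-stage share of the count was then 0.651 (exact permutation p = 0.175) and the day slope of peaks per 10000 was 0.0525 (p = 0.378). With equal numbers of top peaks per library the exact permutation p was 0.0540 for the count and for the peaks per 10000, and 0.4 for the slope. It was 0.178 for the slope with the top 50% of each list, and 0.113 for the percent of the window covered by KLF4 peaks in place of the count. Leaving out any 1 of the 6 libraries of days 3 to 9 raised the p of the count to between 0.0593 and 0.0825 (exact permutation test), and leaving out any 1 of the 8 libraries without 2i raised that of the peaks per 10000 to between 0.0550 and 0.106. Without either day 6 library the slope's p was 0.0667, the smallest that 30 labelings of these values allow.

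Acetylation of the window followed another course. None of the 8 H3K27ac libraries of MEF, day 3 and day 6 had a single peak in the 377204 bp of the window. In these libraries the peak nearest to the Zfp42 start was 434 to 1628 kb away (median 1022 kb), at 434 and 435 kb in MEF and 787 to 1628 kb on days 3 and 6. The day 9 libraries listed 2 peaks covering 0.84 kb and 1 peak covering 1.28 kb, all at the Zfp42 start. The ESC libraries listed 32 and 28 peaks covering 32.7 and 29.8 kb, or 8.66% and 7.91% of the window. Depth is not given in the files, so a library without a peak is not a library without signal, and in bulk material fewer acetylated cells and less acetylation per cell cannot be told apart. The lists also differed in length, from 17493 peaks at day 6 to 88347 in MEF. The part of list length in the lists that were empty here was not tested.

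Stages accounted for 0.9975 of the sum of squares of the percent covered (p = 0.00202 by exact permutation of 1663200 labelings, or 0.00606 adjusted). Relative to the share of the genome that each list covered, the window's coverage was 0 in the 8 early libraries, 0.120 and 0.180 at day 9, and 3.44 and 3.34 in ESC. In ESC the window was thus covered over 3 times as densely as the genome as a whole, and at day 9 under 0.2 times (between-stage share 0.9997, exact permutation p = 0.00202, adjusted p = 0.00606, the smallest p that these values with their ties allow). Both results passed the threshold whichever library was left out. Over days 3, 6 and 9 the relative coverage rose by 0.0231 per day (two-sided p = 0.0357 by exact permutation of 560 labelings, and 0.0357 adjusted). That slope rests on the 2 day 9 libraries: 0.0225 without number 1 and 0.0150 without number 2, each with an exact permutation p of 0.143, and that p was 0.0952 without any 1 day 3 library.

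Batch bears on these values. Within DG-3458 the 6 libraries of MEF, day 3 and day 6 were at 0 and both ESC libraries had 28 or more peaks. Within EA-3702 the single day 3 and day 6 libraries were at 0 and the day 9 libraries at 0.120 and 0.180. Day 9 and ESC share no batch, so the difference between them cannot be told apart from that between the batches. With libraries permuted within batches the exact permutation test of the relative coverage had p = 0.0119 and that of its day slope p = 0.25.

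**Figure D3:**
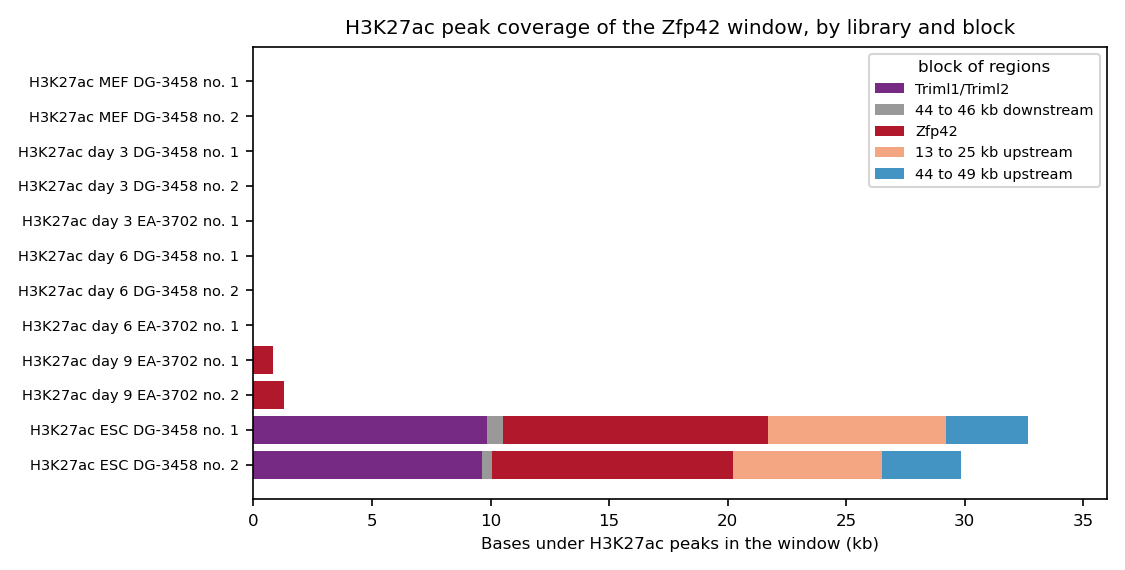
Bases under H3K27ac peaks in the window (kb, linear axis from 0) in each of the 12 H3K27ac libraries, split by the 5 blocks of regions. The 8 libraries of MEF, day 3 and day 6 are at 0, the day 9 libraries reach 0.84 and 1.28 kb in the Zfp42 block alone, and the ESC libraries reach 32.7 and 29.8 kb over all 5 blocks.

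The single region shared by day 9 and ESC was the Zfp42 promoter itself (chr8:43302519-43311899). At day 9 its folds were 3.33 and 3.47, all 3 peaks had a q-value of at most 0.01, and 62.0% and 62.4% of the list scored higher. In ESC its folds were 20.1 and 18.6, and 3.04% and 3.01% of the list scored higher. The region covered 0.84 and 1.28 kb at day 9 and 9.33 and 8.78 kb in ESC, where it reached from inside the gene to beyond its start. With the top 50% of each list, or with 17493 top peaks per library, the day 9 peaks fell out and 2 of 12 libraries kept an H3K27ac peak at Zfp42. The share of all H3K27ac regions with peaks in both day 9 and both ESC libraries and in no MEF, day 3 or day 6 library was 1.49%, against 1 of 34 in the window.

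All 34 H3K27ac regions had a peak in at least 1 ESC library, and 17 had one in both. Of all H3K27ac regions, 17.5% had a peak in both ESC libraries and none in MEF, against 17 of 34 here. Peaks in both ESC libraries and in none of the other 10 were found in 13.0% of all regions and 16 of 34 here. Peaks in both MEF libraries and in no ESC library were found in 23.3% of all regions and 0 of 34 here, a count fixed by the empty MEF lists. The other 17 regions were listed in 1 ESC library each. With 1 ESC library left out, peaks of the remaining libraries were merged anew, so these counts are not of the 34 regions above. Regions of ESC and not of MEF then numbered 27 without ESC number 1 and 32 without number 2. With both libraries and a q-value of at most 0.01 they numbered 11. As every region here was listed in ESC and none in MEF, the counts of 17 and 16 give only the regions on which both ESC libraries agreed. The shares of all regions also count regions without an ESC peak, so they are not like for like. Neighbouring regions of a window are not independent of each other either, so these counts describe the locus and carry no test.

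Regions less than 5 kb apart formed 5 blocks. The Triml1/Triml2 block (chr8:43174942-43191659) had 9.84 and 9.65 kb under peaks in the ESC libraries, about as much as the Zfp42 block (chr8:43295863-43312257) with 11.2 and 10.1 kb. A block 13.3 to 25.4 kb upstream of Zfp42 (chr8:43320284-43332409) had 7.49 and 6.31 kb, and a block 44.0 to 48.8 kb upstream (chr8:43350958-43355828) had 3.48 and 3.32 kb. Between the genes, chr8:43260519-43262889 had 0.701 and 0.432 kb. Neither upstream block nor the one between the genes overlaps a gene of the reference table. No block other than that of Zfp42 had an H3K27ac peak at day 9.

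The strongest ESC regions marked both gene starts and the upstream blocks. The region over the Triml2 start (chr8:43175512-43183742) had folds of 21.6 and 16.7, with 3.97% and 3.57% of the list scoring higher, close to the values of the Zfp42 promoter. The region at chr8:43321117-43322839, 15.0 kb upstream of Zfp42, had folds of 16.0 and 14.2. It overlaps one end of the 13.9 kb KLF4 region, and chr8:43320284-43320767 (6.03 and 5.49) overlaps the other. In the far block the strongest region was chr8:43353858-43355828, 47.8 kb upstream, with folds of 10.3 and 7.47, next to chr8:43352509-43353805 with 5.59 and 4.64.

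Weaker regions listed in both ESC libraries filled in the blocks. Further out in the nearer upstream block lay chr8:43323132-43323895 (folds of 3.32 and 4.92), chr8:43327514-43328433 (4.37 and 4.36), chr8:43329012-43330907 (4.32 and 4.64) and chr8:43331961-43332409 (5.01 and 4.36). One lay at the far end of Zfp42, chr8:43295863-43296404 (3.84 and 3.92), and 1 inside Triml2, chr8:43186757-43187932 (4.72 and 3.22). The remaining 22 regions, 5 in both ESC libraries and 17 in 1, were 216 to 677 bp long with folds from 2.21 to 4.37.

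All 9 KLF4 regions of the window overlapped one of its H3K27ac regions. Of all KLF4 regions, 65.0% overlapped an H3K27ac peak of at least 1 library. Some gaps between H3K27ac peaks lay within KLF4 regions of the window. In ESC number 2 the H3K27ac peaks left gaps at 43307023-43307184 over the Zfp42 promoter, 43180328-43180445 just before the Triml2 start and 43320709-43321116 at the 13.9 kb site. Each gap lay within a KLF4 region of both ESC libraries. In ESC number 1 only the gap at 43320768-43321142 did, and at day 9 number 1 the gap at 43307070-43307264 lay within the KLF4 promoter region of both day 9 libraries. Among gaps of at most 1 kb, those that overlapped such a KLF4 region made up 15.4% in ESC number 2 (3 of 16 in the window), 14.2% in ESC number 1 (1 of 22), 24.2% in day 9 number 1 (1 of 1) and 25.0% in day 9 number 2 (0 of 0), shares that leave nothing particular to the window. In ESC number 1 and day 9 number 2 a single H3K27ac peak ran across the Zfp42 promoter.

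The order of the marks at the Zfp42 promoter was KLF4 in both day 3 and both day 6 libraries, with no H3K27ac peak in the 6 H3K27ac libraries of those days, then both marks from day 9 on. With the top 50% of each list, or with equal numbers of top peaks, H3K27ac was listed there in ESC alone. The day 9 step thus depended on the list filter. Of the KLF4 regions listed in both day 3 libraries, 30.1% had no H3K27ac peak in any day 3 library, so KLF4 without a listed acetylation peak was common at day 3. Of the KLF4 regions listed in all 10 libraries, 5.25% had H3K27ac peaks in both ESC libraries and in no MEF, day 3 or day 6 library, and 3.79% had them also in both day 9 libraries. The Zfp42 promoter, the only such KLF4 region of the window, was among both.

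Per gene, with 2.5 kb to each side, Zfp42 had H3K27ac in 0 of 2 MEF, 0 of 3 day 3, 0 of 3 day 6, 2 of 2 day 9 and 2 of 2 ESC libraries, and KLF4 in all 10. Triml1 and Triml2 had H3K27ac in the 2 ESC libraries only, and KLF4 in the 2 ESC and 2 2i libraries only. The 2 genes share peaks near the Triml2 start, so they are not separate observations. The EA-2697 ESC and DG-3012 2i peaks counted there had q-values above 0.01, and 99.3% of the EA-2697 list scored higher. The EA-3702 2i library had its peak in another region than DG-3012. H3K27ac in both ESC libraries and in no MEF, day 3 or day 6 library was found at 4.47% of 21631 protein-coding genes and at all 3 members. The combination of that pattern with KLF4 in all 10 libraries was found at 41 genes (0.190%), and at 1 of the 3 members, Zfp42.

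Other pluripotency genes were compared as a list of 24, in which Zfp42 was not included. All 24 had H3K27ac in both ESC libraries and 20 in both day 9 libraries, against 11 in both MEF, 9 in every day 3 and 8 in every day 6 library. Over all protein-coding genes the same counts were 66.3% for MEF, 52.8% for day 3, 43.7% for day 6, 63.5% for day 9 and 65.9% for ESC. KLF4 was present in every day 3 library at 11 of the 24 genes, every day 6 library at 13, every day 9 library at 18, both ESC libraries at 22 and both 2i libraries at 20. The KLF4 shares over all protein-coding genes were 41.6% for day 3, 39.7% for day 6, 43.1% for day 9, 40.5% for ESC and 44.0% for 2i, so the day 3 count of the list is near that of all genes. H3K27ac in both ESC and in no MEF, day 3 or day 6 library was found at 8 of the 24 (4.47% of all genes), and KLF4 in all 10 libraries at 8 (23.5% of all genes). None of the 24 had both patterns, which were found together at 0.190% of all genes, so a count of 0 in a list of this size sets nothing apart.

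The 8 genes of the list with H3K27ac in both ESC and in no MEF, day 3 or day 6 library each lacked KLF4 in at least 1 library. Esrrb, a nuclear receptor of the naive network, and Nr5a2, another nuclear receptor, had H3K27ac only at day 9 and in ESC, and KLF4 in no day 3 library and in all 8 others. Utf1, a chromatin protein of ESC, and Tdgf1, a Nodal co-receptor, had the same H3K27ac pattern, with KLF4 at day 3 in 0 and 2 libraries and at day 6 in 1 library each. Nr0b1, which codes for the repressor DAX1, had no KLF4 peak at day 3 or with 2i. Dppa2, Dppa4 and Prdm14 were acetylated in ESC alone, as the Triml genes were. By listed peaks at any q-value, Dppa2 also had KLF4 in the same libraries as Triml1 and Triml2, both ESC and both 2i and none before. The share of all genes with KLF4 in just these libraries was not counted.

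The 8 genes of the list with KLF4 in all 10 libraries each had an H3K27ac peak in at least 1 library before day 9. Fgf4, a growth factor gene, had KLF4 in all 10 libraries and H3K27ac in every library of days 3, 6 and 9, and Sall4, a zinc finger factor, in every library from day 6. Nanog, with no KLF4 peak at day 3, had H3K27ac in 2 of 3 libraries of both day 3 and day 6. Tfcp2l1, Klf5 and Gdf3 had KLF4 in all 10 libraries and H3K27ac in both MEF libraries. Pou5f1, Sox2 and Klf4 are part of the cassette, and reads from it cannot be told apart there from reads of the genes themselves.

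**Figure D4:**
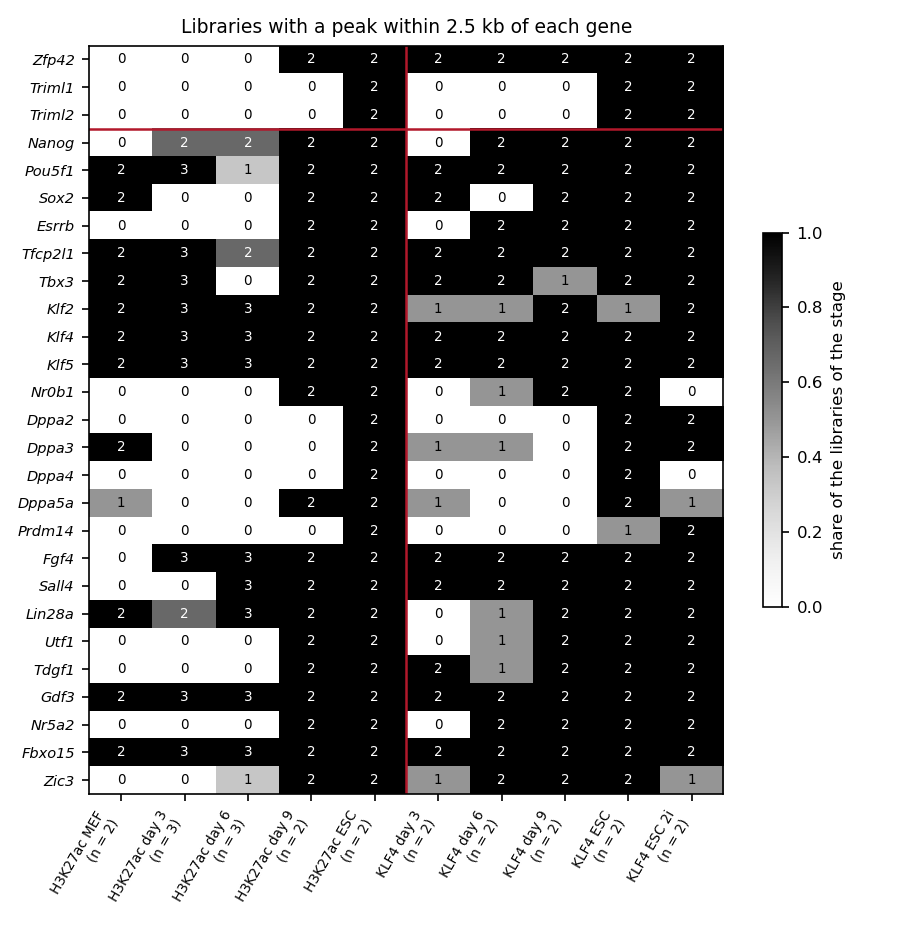
Number of libraries with a peak over each gene or within 2.5 kb (numbers in cells; shade, share of the libraries of the stage) for Zfp42, Triml1 and Triml2 (above the red line) and 24 other pluripotency genes, with H3K27ac to the left and KLF4 to the right of the vertical line. Zfp42 is filled in all 5 KLF4 columns and in the day 9 and ESC H3K27ac columns, and the Triml genes in ESC and 2i columns only.

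Yy1, from which Zfp42 derives, had both marks in every library. Yy2, the other gene of that origin, had H3K27ac in the 2 ESC libraries only and no KLF4 peak in any. Rlim, which codes for the ubiquitin ligase that targets the Zfp42 protein, had both marks in every library. The TRIM-family genes Trim28, Trim71, Trim8 and Trim24 at other places also had both in every library. KLF4 in all 10 libraries was found at 23.5% of all protein-coding genes. The share of genes with both marks in every library was not counted, so these genes are described only.

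The genes whose pattern was most like that of Zfp42 were sought by the mean absolute difference, over 22 libraries, of the rank percentile of the best peak within each list (0 where none was listed). They were Alpk3, a kinase gene of heart muscle (6.43 percentage points), Fzd10, a Wnt receptor (7.25), Creb3l3, a transcription factor of the liver (7.49), Upk1a, a membrane protein of the urothelium (7.58), and Ankrd35 (7.77), against a median of 53.6 over 21630 genes. Alpk3 and Upk1a had a peak in exactly the libraries in which Zfp42 had one. Fzd10 lacked H3K27ac in 1 day 9 library, Creb3l3 had it in 1 day 6 library, and Ankrd35 had it in both MEF libraries. With presence alone as the measure, 26 other genes matched Zfp42 in all 22 libraries.

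Markers of the cells behind the libraries also differed between stages. Of 12 fibroblast markers, H3K27ac was present in every MEF library at 12, in every day 3 library at 10, and at 4, 5 and 4 in every library of day 6, day 9 and ESC. Of 10 ESC markers it was present at 4 in both MEF libraries, at 3 in every library of day 3 and of day 6, and at all 10 in every library of day 9 and ESC. All 10 are also in the list of pluripotency genes above, and Pou5f1 and Sox2 among them are part of the cassette. Col1a1, 1 of the fibroblast markers still listed in ESC, carries the cassette in the reprogrammed cells, and the ESC were grown on feeder cells. Of 4 trophoblast markers it was present in every library at 0 for MEF and for day 3, 1 for day 6, 3 for day 9 and 4 for ESC, and of 4 endoderm markers at 1 for MEF, 0 for days 3, 6 and 9, and 3 for ESC. The share over all protein-coding genes, given above, was likewise lower for day 6 (43.7%) than for day 3 (52.8%), and was 63.5% for day 9, 65.9% for ESC and 66.3% for MEF. The part of cell composition in the values of the window was not tested.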

How the data were processed

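ChIP-seq of H3K27ac (12 libraries) and KLF4 (10 libraries) was analysed from 1 deposited peak list per library. The 13 input libraries were not analysed here. Single-end reads came from formaldehyde-crosslinked, sonicated chromatin, per the labels' protocols. The submitters' processing notes name cutadapt 1.8.1, Bowtie2 2.2.5, MACS2 2.1.1, deepTools 2.3.6 and mm10. The thresholds and controls are not given in the sources used here. The deposited score of a peak is the whole part of 10 times its −log10 p. The authors also deposited a fold enrichment (ratio) and −log10 of the p-value and q-value. Every list ends near a −log10 p of 2, and 35.1% to 89.7% of a list had a q-value of at most 0.01. Depth is not given, so no counting interval could be made.

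Lists were read with Python 3.11.15, numpy 2.4.6 and pandas 2.3.3. Peaks on chromosomes 1 to 19 and X, as listed, entered the counts, and intervals overlapped when they shared 1 bp. Relative coverage is the covered share of the window divided by the covered share of the chromosomes. Gene positions and promoters are RefSeq's for GRCm38.p6, the build called mm10 in the notes. Each of 6 tests used 1 value per library and an exact permutation test over every distinct labeling, with Benjamini-Hochberg adjustment over the 6 and a threshold of 0.05. The code was tested on simulated data.

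The members, gene lists and tests were chosen with earlier results of these data known. Named were the 3 members, genes of the window, the regions in every library of a stage (at most 12 of H3K27ac, by mean rank), the 5 genes most like Zfp42, and fixed lists. Alternatives were the top 50% of each list, equal numbers of top peaks (17493 and 21129), a q-value limit of 0.01, flanks of 50 and 250 kb, blocks by batch or replicate number, other measures, overlaps and flanks of the gene, and leaving out each library. Leaving out the pair of day 6 H3K27ac libraries of batch DG-3458, whose peak names carry each other's number, was added after seeing the data. Both have no peak in the window. Peak names of the EA-3702 list labelled 2i do not show the medium.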

Additional observations from a re-analysis of the deposited data

How the results depend on the processing

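Of 148 alternatives, 99 kept their direction and their side of the threshold, or for counts stayed within 1.5 times. The H3K27ac coverage of the window passed with each list filter, flank, batch block and left-out library. With the top 50% and with equal numbers of peaks the day 9 libraries had no peak left. The unadjusted exact permutation p of both coverage measures was then 0.0455, near the threshold and the smallest that these tied values allow. With the replicate block in batch DG-3458 the between-stage shares were 0.997 and 0.9997 with p = 0.25 (exact permutation), the smallest that these tied values allow. A check for pairing of libraries by replicate number found none: its correlations in 6 pairs of stages were -0.0054 to 0.021. The check included the day 6 libraries whose peak names carry each other's number. The day slope of relative coverage was 0 with the top 50% of the lists and 0 with equal numbers of peaks. Its size depended on the window, with 0.0315 for flanks of 50 kb and 0.01285 for 250 kb (exact permutation p = 0.0357 for each). It was 0.0231 with the batch block (exact permutation p = 0.25), 0.0241 (p = 0.0667) without the DG-3458 day 6 pair, and 0.0150 to 0.0250 leaving out each library. For the KLF4 count the share was 0.804 with the top 50% and 0.735 (exact permutation p = 0.113) for covered percent, with 2i highest in both, 0.875 with equal numbers (p = 0.0540, no longer past the threshold), 0.651 (p = 0.175) at a q-value of at most 0.01, and 0.836 to 0.955 leaving out each library. Per 10000 peaks it was 0.905 (top 50%) and 0.945 (q-value), with 2i highest in both, 0.875 with equal numbers (exact permutation p = 0.0540), and 0.826 to 0.9985 leaving out each library. The KLF4 day slope lost its call at 0.0286 (top 50%, exact permutation p = 0.178), 0.0789 (equal numbers, p = 0.4) and 0.0525 (q-value, p = 0.378), and was 0.139 to 0.160 leaving out each library. H3K27ac regions gained in ESC numbered 9, 3 and 11 under the 3 list filters. With each library left out and regions merged anew from the others, they numbered 17 to 32. They were 27 without ESC number 1 and 32 without number 2. KLF4 regions of ESC numbered 2 (top 50%), 2 (q-value) and 4 to 7, with 7 without the EA-2697 ESC library. Libraries with H3K27ac at Zfp42 fell to 2 with the top 50% and 2 with equal numbers, and KLF4 at Zfp42 was listed in 10 under each alternative other than the gene body alone, where it was 9. By presence alone, 2 of the 5 genes most like Zfp42 stayed among the best matches. Fewer peaks enter the list filters and fewer libraries the settings that leave some out, and causes of the changes were not tested. The absent depth and the 2 or 3 libraries per stage limit every value.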

Other observations

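Genes beyond the window showed several patterns along the chromosome. Fat1, a large cadherin-family gene (chr8:44933100-45052257), had H3K27ac in all 12 and KLF4 in all 10 libraries. In both day 6 libraries of batch DG-3458 the H3K27ac peak nearest to Zfp42, 1628 kb upstream, lay within Fat1. Mtnr1a, a melatonin receptor gene beyond Fat1, had H3K27ac in the 2 ESC libraries only and no KLF4 peak. Frg1, on the other side, had H3K27ac in all 12 libraries and KLF4 in 1 library of day 3 and 1 of day 6. Adam26a, Adam26b and Adam34, metalloprotease-family genes known from the testis that lie beyond the upstream edge of the window, had no peak of either assay in any library.

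Of 5 epithelial markers fixed as a list, H3K27ac was present at 2 in every library of MEF, of day 3 and of day 6, and at all 5 in every library of day 9 and of ESC. Over all protein-coding genes the shares were 66.3% for MEF, 52.8% for day 3, 43.7% for day 6, 63.5% for day 9 and 65.9% for ESC, so the day 6 count is near that of all genes.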
